A study of Mus musculus with 8 samples.

Results

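Transcripts of 9 secreted neurotrophic and growth factors were followed in cultured mouse astrocytes with reduced GSTM1: Bdnf, Ntf3, Gdnf, Cntf, Vegfa, Fgf2, Hbegf, Mdk and Ptn. The members were chosen by gene symbol, and all 9 were found among the 54146 genes listed for each library. The cells were primary cortical astrocytes from neonatal C57BL/6 mice that carried a lentiviral short hairpin RNA (shRNA) against Gstm1 (GSTM1 KD) or a non-silencing shRNA (control KD), so that virus infection, puromycin selection and the removal of CD11b-positive cells were shared by all groups. Each line was left without stimulation (the basal level) or given TNF-α at 50 ng/ml for 6 h, and each of the 4 groups had 2 biological replicates, giving 8 libraries. The source of the replicates (separate pups, litters or infections) was not given in the sources used here, so the p-values measure the spread between these libraries. The cells came from a mixed postnatal glial culture and were the fraction left after magnetic removal of CD11b-positive cells, not a fraction selected for an astrocyte marker.

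Astrocytes release protein factors that act on neurons, other glia and blood vessels. Bdnf and Ntf3 encode neurotrophins, which signal through the Trk receptor tyrosine kinases, while Gdnf encodes a ligand that binds the coreceptor GFRα1 and signals through Ret. Cntf encodes ciliary neurotrophic factor, a cytokine of the interleukin-6 family that astrocytes store and that acts through Cntfr, Lifr and Il6st. Vegfa, Fgf2 and Hbegf encode ligands of the VEGF, FGF and EGF receptor families, and Mdk and Ptn encode midkine and pleiotrophin, heparin-binding proteins that bind Ptprz1, Alk, Lrp1 and syndecans.

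RefSeq promoter windows (GRCm38.p6) were held for 7 of the 9 members in the table used here, and Mdk and Hbegf had no entry. The 250 bases before the RefSeq start nearest to the annotated gene start are shown for Gdnf, the member with the widest difference between the lines, for Vegfa, as an example of the 3 further members with lower values in each GSTM1 KD library and a window in the table (Vegfa, Bdnf and Fgf2), and for Cntf and Ptn, the members with higher values in each GSTM1 KD library. The Gdnf window is chr15:7809798-7810047 (plus strand), the Vegfa window chr17:46032378-46032627 (minus strand), the Cntf window chr19:12765633-12765882 (minus strand) and the Ptn window chr6:36810180-36810429 (minus strand). Capitals mark matches, on either strand, to an AP-1 site (TGANTCA), a CRE core (TGACG), a κB-like pattern (GGGNNTTCC), a hypoxia response core (ACGTG) or a GC box (GGGCGG). Other forms of the κB site were not searched for, so a window without this pattern may hold another form.
Gdnf: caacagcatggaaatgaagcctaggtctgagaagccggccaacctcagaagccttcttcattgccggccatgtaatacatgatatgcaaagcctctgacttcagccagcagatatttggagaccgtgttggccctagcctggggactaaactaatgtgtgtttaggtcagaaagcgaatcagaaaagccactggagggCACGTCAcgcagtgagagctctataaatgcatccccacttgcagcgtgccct
Vegfa: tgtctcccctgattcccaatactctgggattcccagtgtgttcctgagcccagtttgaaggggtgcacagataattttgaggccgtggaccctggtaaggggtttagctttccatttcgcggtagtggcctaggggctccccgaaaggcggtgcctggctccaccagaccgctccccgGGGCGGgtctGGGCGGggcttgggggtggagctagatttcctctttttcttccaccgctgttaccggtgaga
Cntf: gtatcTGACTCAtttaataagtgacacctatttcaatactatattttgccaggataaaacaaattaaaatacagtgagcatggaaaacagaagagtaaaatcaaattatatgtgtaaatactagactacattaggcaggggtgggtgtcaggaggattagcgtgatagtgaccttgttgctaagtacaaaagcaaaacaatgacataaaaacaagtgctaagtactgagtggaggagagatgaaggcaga
Ptn: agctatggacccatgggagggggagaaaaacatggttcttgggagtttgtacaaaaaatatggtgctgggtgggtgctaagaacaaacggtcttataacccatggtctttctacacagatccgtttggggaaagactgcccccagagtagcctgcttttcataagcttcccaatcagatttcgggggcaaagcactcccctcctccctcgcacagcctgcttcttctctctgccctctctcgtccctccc

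The Gdnf window lies before a RefSeq start 798 bases upstream of the GENCODE gene start, and no GENCODE transcript of Gdnf holds the bases after it, so its positions are not those before an annotated GENCODE start. In that window a CRE core and a hypoxia response core shared letters, starting 50 and 52 bases before the RefSeq start. The Vegfa window held 2 GC boxes at 72 and 62 bases before the start and the Cntf window an AP-1 site at 245 bases, while the Ptn window held none of the 5 motifs. Of the windows not printed, that of Bdnf held 2 hypoxia response cores at 170 and 77 bases, that of Fgf2 held 2 CRE cores at 140 and 6 bases and a GC box at 49, and that of Ntf3 held a hypoxia response core on each strand at 231 and 230 bases and a GC box at 45. Of 32851 windows of this length in the table, 6.75% held TGANTCA, 17.8% TGACG, 4.98% GGGNNTTCC, 16.6% ACGTG and 32.7% GGGCGG. These matches describe the letters of the windows and are not binding sites shown by these data.

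The libraries were sequenced to totals of 17349676 to 34434633 rounded expected counts, the deepest being control KD replicate 1 at the basal level. Gstm1, the targeted gene, was at 373 and 619 TPM (the length-normalised transcript abundance) in basal control KD and at 49.7 and 53.8 TPM in basal GSTM1 KD, and at 338 and 627 against 40.5 and 39.4 TPM after TNF-α, so that the libraries matched their labels. The astrocyte label was checked with 9 markers, all with counts in every library. Their summed TPM was 1580 and 3790 in basal control KD and 3650 and 5720 in basal GSTM1 KD, and 1580 and 3640 against 3500 and 5420 after TNF-α, so control KD replicate 1 stood below the other libraries in both states. Of 8 microglial markers, 5 were below 1 TPM in both control KD libraries and 7 in both GSTM1 KD libraries, in each state, and of 5 endothelial markers at least 4 were below 1 TPM in every group. Oligodendrocyte lineage transcripts were present, with a summed TPM over 9 markers of 533 and 596 in basal control KD against 441 and 423 in basal GSTM1 KD, and of 448 and 479 against 352 and 340 with stimulation, while the myelin genes Mbp, Mog and Mag stayed below 1 TPM in every library. The 6 fibroblast and pericyte markers summed to 95.6 and 145 against 75.6 and 108 TPM before TNF-α and to 83.8 and 122 against 60.8 and 95.2 TPM after it, and the 5 choroid plexus and ependyma markers to 76.3 and 118 against 102 and 118 and to 65.1 and 77.4 against 93.5 and 104 TPM. Of 6 neuronal markers 4 were below 1 TPM in both libraries of every group. Single markers outside the astrocyte list passed in edgeR. Olig2 was lower in GSTM1 KD (log2 -0.85, edgeR adjusted p = 0.0251, and -1.14, adjusted p = 0.0101), as was the collagen gene Col1a2 (log2 -1.13, edgeR adjusted p = 0.0352, and -0.99, adjusted p = 0.0250), and Folr1, a choroid plexus marker, was higher at no more than 8.61 TPM (log2 2.67, edgeR adjusted p = 0.0476, and 2.78, adjusted p = 0.0330). After TNF-α Olig1 also passed as lower and Pdgfrb as higher (edgeR adjusted p = 0.0497 and 0.0337), which they did not at the basal level (adjusted p = 0.0830 and 0.184). These markers moved with the line differences of the members given below, and their part in them was not tested. In such bulk libraries, fewer cells of a type and less RNA per cell cannot be told apart.

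Hbegf was the most abundant of the 9 transcripts in every group, and Ntf3 was close to the detection limit. At the basal level in control KD, the mean TPM (length-normalised) was 1110 for Hbegf, 77.2 for Ptn, 55.5 for Fgf2, 46.3 for Vegfa, 40.7 for Cntf, 22.3 for Bdnf, 14.9 for Mdk and 3.62 for Gdnf. The ranges of Ptn and Fgf2 overlapped, as did those of Vegfa and Cntf, so their order was within the spread of the replicates. In GSTM1 KD at the basal level the order by level was Hbegf, Ptn, Cntf, Fgf2, Vegfa, Bdnf, Mdk and Gdnf, and no neighbours overlapped. The order in GSTM1 KD after TNF-α was the same, whereas in control KD after TNF-α the ranges of Ptn and Fgf2 overlapped, and those of Cntf, Vegfa and Bdnf did so one after another.

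**Figure D1:**
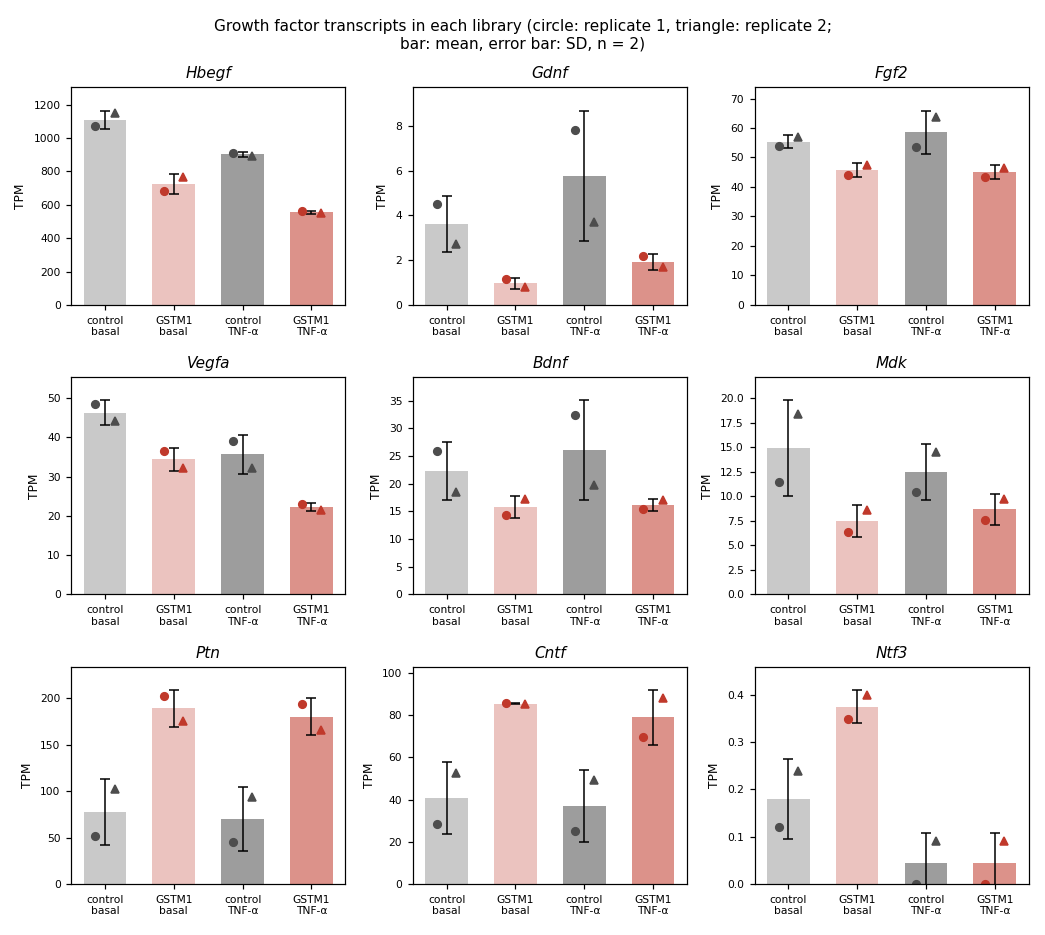
Level of each of the 9 transcripts in TPM (vertical axes, linear, from 0) in the 4 groups; points are single libraries, bars the mean and error bars the SD of 2 replicates. Hbegf and Gdnf are lower and Ptn and Cntf higher in every GSTM1 KD library than in the control KD libraries of the same state, while Ntf3 stays at or below 0.40 TPM.

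The comparison of GSTM1 KD with control KD asked which of these transcripts differ when GSTM1 is reduced, without stimulation and after TNF-α. Gdnf and Hbegf were lower in GSTM1 KD in both states. At the basal level 8 of the 9 members passed the filter on low counts, 2 of these 8 were lower and 0 higher at an adjusted p under 0.05 (the quasi-likelihood test of edgeR, adjusted over all tested genes by the Benjamini-Hochberg method), where 5.62% of all tested genes were lower and 4.6% higher. After TNF-α again 2 of 8 were lower and 0 higher, beside 8.92% lower and 7.26% higher among all tested genes. The remaining 6 members did not pass in this fit in either state, and 2 of the 8 had a higher and 6 a lower estimate in each. With the replicate number as a block, which the sources do not say marks a shared culture, 8 of 8 members passed at the basal level, beside 31.6% of all tested genes, and 7 of 8 after TNF-α (not Mdk), beside 29.5%. At an unadjusted p under 0.05, 2 members were higher and 6 lower at the basal level, beside 15.3% and 16.3% of all tested genes, and 2 were higher and 5 lower after TNF-α, beside 17.2% and 19%. The median log2 fold change of the 8 members was -0.49 between the basal lines and -0.56 between the stimulated lines, against -0.002 and -0.011 over all tested genes.

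For all 8 members the library values (CPM, counts relative to the TMM-scaled library size) did not overlap between the lines in either state. Such separation was common, being found in 63.5% of tested genes at the basal level and in 66.6% after TNF-α. DESeq2, the tool of the study's methods, applied to the same counts called 4 members at the basal level (Gdnf, Hbegf, Ptn and Cntf), where it called 18.2% of all genes, and 6 after TNF-α (the same 4 with Vegfa and Bdnf), where it called 20.4%. Both tools gave each of the 8 estimates the same sign. When a library was left out, its group had 1 library, which was assumed to vary like the other group. Leaving out either GSTM1 KD library of a state left 0 members past the threshold in that state, and 1 or 3 genes in all without stimulation and 0 or 94 with it.

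**Figure D2:**
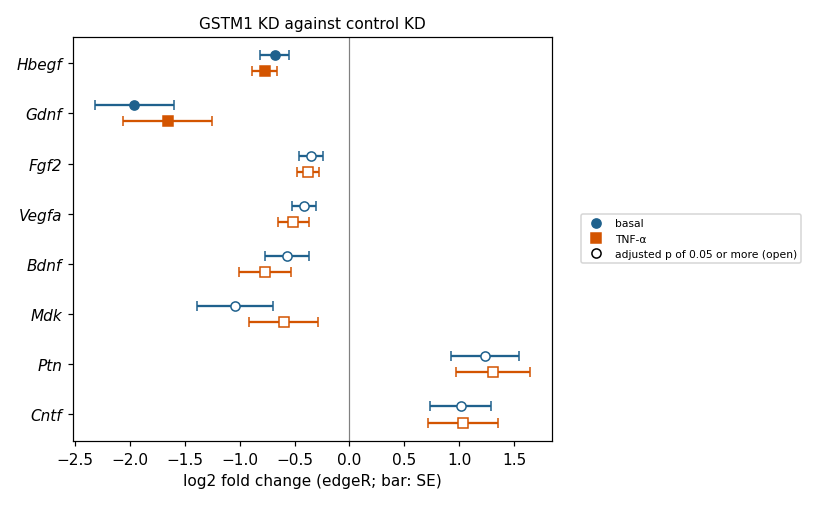
The log2 fold change of GSTM1 KD against control KD (horizontal axis, from the edgeR fit) for the 8 members tested, in basal libraries (circles) and after TNF-α (squares); bars are standard errors and filled symbols passed an adjusted p of 0.05. Hbegf and Gdnf lie left of 0 with filled symbols in both states, and Ptn and Cntf lie right of 0 with open symbols.

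Among the neurotrophic ligands, Gdnf showed the widest separation. Gdnf (chr15:7810846-7837575, plus strand, GENCODE M21 on GRCm38), the survival factor for dopaminergic and motor neurons, gave 322 and 140 counts in basal control KD and 51 and 31 in basal GSTM1 KD, or 9.11 and 5.47 against 2.19 and 1.55 CPM. Both GSTM1 KD libraries were below both control KD libraries, and the fold change was 0.257 (log2 -1.96, SE 0.359, edgeR adjusted p = 0.0327). After TNF-α Gdnf was at 15.9 and 7.64 CPM in control KD and at 4.34 and 3.28 CPM in GSTM1 KD, again without overlap, with a fold change of 0.318 (log2 -1.65, SE 0.403, edgeR adjusted p = 0.0473). Control KD replicate 1 was the highest library in each state. Without that library, when the spread came from the 2 GSTM1 KD libraries alone, the log2 difference was -1.54 (edgeR adjusted p = 0.0221) at the basal level and -1.02 (edgeR adjusted p = 0.0522) after TNF-α, and without control KD replicate 2 it was -2.28 and -2.07. In limma on log2 TPM the value after TNF-α was -1.29 (adjusted p = 0.0782).

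Ret, the signalling receptor of the GDNF family, went the other way. Ret was at 1.46 and 1.25 TPM in basal control KD and 4.57 and 7.19 TPM in basal GSTM1 KD, a 4.1-fold rise (log2 2.04, SE 0.286, edgeR adjusted p = 0.0223), and at 1.49 and 1.3 against 5.37 and 6.91 TPM after TNF-α, a 4.19-fold rise (log2 2.07, SE 0.219, edgeR adjusted p = 0.0112). Thus in the same libraries the ligand transcript was lower and the receptor transcript higher. Of the 4 GDNF receptor genes tested, Ret was the only one that passed in edgeR in either state. The coreceptor Gfra1 differed by a log2 value of 0.10 (SE 0.275) in basal libraries and 0.08 (SE 0.202) after TNF-α, and was at 28.6 to 56.8 TPM over all libraries. The other family ligands tested, Nrtn and Artn, did not pass in edgeR in either state. Without stimulation their log2 values were 1.53 and 0.68, and DESeq2 called 1 of the 2 higher. In the stimulated libraries the values were 1.2 and 1.29, both at an unadjusted edgeR p under 0.05, and DESeq2 called 0 of the 2. These estimates were opposite in sign to those of Gdnf.

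Bdnf (chr2:109674700-109727007, plus strand), the ligand of TrkB, was at 57.3 and 40.4 CPM in basal control KD and at 30.0 and 36.1 CPM in basal GSTM1 KD. After TNF-α it was at 71.9 and 44.6 against 33.7 and 36.3 CPM. The control KD replicates differed from each other more than the GSTM1 KD replicates did, and replicate 2 lay close to the GSTM1 KD libraries. The log2 difference was -0.57 (SE 0.200, edgeR adjusted p = 0.123) at the basal level and -0.77 (SE 0.235, edgeR adjusted p = 0.0788) after TNF-α, and without control KD replicate 1 it was -0.30 and -0.37, and without replicate 2 it was -0.81 and -1.06. Exons of Bdnf share 896 bases with an annotated antisense gene, Gm45346, and the strand setting of the counting was not given in the sources used here.

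Ntf3 (chr6:126101412-126166910, minus strand), the ligand of TrkC, had 3 and 4 counts in basal control KD and 5 and 5 in basal GSTM1 KD. After TNF-α it had 0 and 1 counts in each line. These counts were too few for the filter, no fold change is given, and a difference between the lines was not detectable at this depth.

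Of the 4 neurotrophin receptor genes tested, 0 passed in edgeR in either state, while 1 (Sort1, sortilin) was higher at an unadjusted p under 0.05 and with DESeq2 in each state. Ntrk2, the gene of TrkB, was abundant and differed by a log2 value of 0.05 (SE 0.346) at the basal level, with 166 and 353 TPM in control KD and 268 and 295 TPM in GSTM1 KD. Both GSTM1 KD values lay between the control KD values. Ntrk3, the gene of TrkC, was at 1.84 to 4.0 TPM over all libraries, with a log2 difference of 0.34 (SE 0.267) at the basal level.

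Cntf (chr19:12763660-12765632, minus strand) was higher in each GSTM1 KD library but did not pass the edgeR test. It was at 14.2 and 25.7 CPM in basal control KD and 40.3 and 39.8 CPM in basal GSTM1 KD, and at 12.4 and 24.4 against 33.9 and 42.2 CPM after TNF-α. The log2 difference was 1.01 (SE 0.277, edgeR adjusted p = 0.0742; DESeq2 adjusted p = 0.00571) and 1.03 (SE 0.320, edgeR adjusted p = 0.0806; DESeq2 adjusted p = 0.00854). The replicates of control KD differed from each other, and the log2 difference without replicate 1 was 0.64 before stimulation and 0.62 after it, while without replicate 2 it was 1.49 and 1.6. Cntf exons share 847 bases on the same strand with Zfp91, a read-through neighbour, whose reads may be divided with it. Zfp91 was at 64.8 and 64.6 TPM in basal control KD and 60.9 and 60.4 TPM in basal GSTM1 KD, with a log2 difference of -0.15 (SE 0.102, edgeR adjusted p = 0.348).

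The related ligands Lif and Clcf1 were lower in GSTM1 KD, and 2 of 3 family ligands tested passed as lower in each state. Clcf1, which signals through the same receptor as Cntf, was at 166 and 175 TPM in basal control KD and 81.8 and 72.8 TPM in basal GSTM1 KD (log2 -1.18, SE 0.104, edgeR adjusted p = 0.0132), and its log2 difference was -1.10 (SE 0.115, edgeR adjusted p = 0.0111) after TNF-α. Lif, leukemia inhibitory factor, was at 65.6 and 49.3 TPM against 28.3 and 27.2 TPM at the basal level (log2 -1.23, SE 0.152, edgeR adjusted p = 0.0190). After TNF-α Lif was at 154 and 142 TPM against 60.7 and 49.0 TPM (log2 -1.53, SE 0.152, edgeR adjusted p = 0.0108). Within 1 receptor system, 2 ligand transcripts were thus lower while the values of Cntf lay higher. The 3 receptor subunits, Cntfr, Lifr and Il6st, did not pass in either state, with log2 values of 0.50, -0.07 and -0.08 at the basal level and 0.24, 0.37 and -0.06 after TNF-α.

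Vegfa (chr17:46016993-46032369, minus strand), the angiogenic ligand of the VEGF receptors, was at 63.4 and 57.4 CPM in basal control KD and 46.5 and 44.0 CPM in basal GSTM1 KD. After TNF-α it was at 51.6 and 41.9 against 34.6 and 32.3 CPM. The groups did not overlap, and the log2 difference was -0.42 (SE 0.109, edgeR adjusted p = 0.0678) and -0.51 (SE 0.142, edgeR adjusted p = 0.0635). The estimated transcript length of Vegfa moved with the groups after TNF-α, the effective length being 2242 and 2164 bases in control KD and 2580 and 2647 bases in GSTM1 KD. With effective lengths as offsets the log2 difference after TNF-α was -0.74 (edgeR adjusted p = 0.0287), and the part of the transcript isoforms in this was not tested.

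Of the VEGF family and its receptors, Pgf and Nrp2 passed as lower at the basal level. Pgf, the placental growth factor, was at 6.98 and 5.66 TPM against 3.41 and 2.46 TPM (log2 -1.24, SE 0.276, edgeR adjusted p = 0.0482), and Nrp2, a coreceptor, was at 26.3 and 16.4 against 10.1 and 6.07 TPM (log2 -1.48, SE 0.317, edgeR adjusted p = 0.0442). After TNF-α neither passed in edgeR, with log2 values of -1.12 (adjusted p = 0.0900) for Pgf and -1.08 (adjusted p = 0.0547) for Nrp2. The signalling receptors Kdr and Flt1 were low, at 0.18 to 0.93 and 1.35 to 6.55 TPM over all libraries, and neither passed in edgeR. DESeq2 called 2 of the 5 VEGF receptor genes tested lower at the basal level and 1 lower after TNF-α.

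Of 10 tested genes on a list of hypoxia-response genes that accompany Vegfa, 1 was higher and 1 lower in each state. Egln3, an oxygen-sensing prolyl hydroxylase, was higher at the basal level (log2 1.08, SE 0.242, edgeR adjusted p = 0.0487) and after TNF-α (log2 1.21, SE 0.214, edgeR adjusted p = 0.0250). Egln1, a second enzyme of that kind, was lower at the basal level (log2 -0.58, SE 0.117, edgeR adjusted p = 0.0388), and Adm, which encodes adrenomedullin, was lower after TNF-α (log2 -1.81, SE 0.246, edgeR adjusted p = 0.0156). The list's median log2 difference was 0.01 and -0.04, beside the -0.002 and -0.011 of all tested genes.

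Fgf2 (chr3:37348346-37410108, plus strand), a mitogen for glia and endothelium, had the smallest estimated difference of the 8. It was at 175 and 183 CPM in basal control KD and 133 and 148 CPM in basal GSTM1 KD, and at 173 and 191 against 140 and 144 CPM after TNF-α. The log2 difference was -0.35 (SE 0.111, edgeR adjusted p = 0.0998) and -0.38 (SE 0.0992, edgeR adjusted p = 0.0558). Fgf2 exons share 640 bases on the opposite strand with Nudt6, which was at 6.34 and 5.74 TPM in basal control KD and 9.48 and 10.3 TPM in basal GSTM1 KD and did not pass (edgeR adjusted p = 0.288). Among the 5 other FGF family genes tested, Fgf7 passed after TNF-α and missed the threshold before it (edgeR adjusted p = 0.0563). After TNF-α Fgf7 was at 6.26 and 5.52 TPM against 1.59 and 2.92 TPM (log2 -1.75, SE 0.353, edgeR adjusted p = 0.0323). The other 4, Fgf1, Fgf9, Fgf13 and Fgf18, had positive estimates in both states and did not pass in edgeR. After TNF-α their log2 values were 0.55, 0.32, 0.52 and 1.68 (edgeR adjusted p = 0.0678, 0.685, 0.0644 and 0.0545). In that state DESeq2 called 1 of the 5 FGF family genes higher and 1 lower. The receptors Fgfr1, Fgfr2 and Fgfr3 did not pass in edgeR in either state. Their log2 values were 0.23, 0.28 and 0.41 at the basal level and 0.30, 0.29 and 0.79 after TNF-α. DESeq2 called 1 of the 4 FGF receptor genes tested higher and 1 lower after TNF-α.

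Hbegf (chr18:36504927-36515805, minus strand), which encodes heparin-binding EGF-like growth factor, a membrane-anchored EGF receptor ligand, had the tightest replicates of the members that passed. It was at 1350 and 1430 CPM in basal control KD and 816 and 917 CPM in basal GSTM1 KD, a fold change of 0.624 (log2 -0.68, SE 0.133, edgeR adjusted p = 0.0370). After TNF-α it was at 1150 and 1140 against 697 and 669 CPM, a fold change of 0.586 (log2 -0.77, SE 0.113, edgeR adjusted p = 0.0177). When single libraries were left out, the log2 value ranged from -0.78 to -0.60 without stimulation and from -0.79 to -0.74 after it. In limma on log2 TPM the basal value was -0.62 (adjusted p = 0.0507).

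Other EGF family ligands passed in the same direction, 1 of 7 tested without stimulation and 2 of 6 after TNF-α. Ereg, epiregulin, was at 7.80 and 6.41 TPM in basal control KD and 1.66 and 2.96 TPM in basal GSTM1 KD (log2 -1.69, SE 0.309, edgeR adjusted p = 0.0327), and at 11.3 and 10.6 against 2.63 and 3.22 TPM after TNF-α (log2 -1.98, SE 0.164, edgeR adjusted p = 0.00981). Tgfa, transforming growth factor α, was lower after TNF-α (log2 -0.58, SE 0.120, edgeR adjusted p = 0.0343). Among the ligands that did not pass, Nrg2 lay the other way, higher in each GSTM1 KD library of both states. Its log2 value after TNF-α was 0.81 (SE 0.281, edgeR adjusted p = 0.103). The receptor Egfr did not pass, with log2 values of -0.24 (SE 0.146) and -0.37 (SE 0.114). Erbb4 was higher after TNF-α (log2 1.40, SE 0.311, edgeR adjusted p = 0.0396), at no more than 0.51 TPM in any library.

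Mdk and Ptn, the 2 members of the midkine family, had estimates of opposite sign. Mdk (chr2:91929805-91932297, minus strand) was at 3.70 and 5.75 CPM in basal control KD and 1.93 and 2.66 CPM in basal GSTM1 KD, and at 3.32 and 4.75 against 2.36 and 3.05 CPM after TNF-α. Its log2 difference was -1.04 (SE 0.342, edgeR adjusted p = 0.106) and -0.60 (SE 0.316, edgeR adjusted p = 0.228). Ptn (chr6:36714929-36810220, minus strand) was at 42.2 and 82.2 CPM against 157 and 135 CPM at the basal level, and at 36.7 and 77.5 against 155 and 130 CPM after TNF-α. Its fold change was 2.35 (log2 1.23, SE 0.308, edgeR adjusted p = 0.0618; DESeq2 adjusted p = 0.000499) and 2.47 (log2 1.3, SE 0.337, edgeR adjusted p = 0.0543; DESeq2 adjusted p = 0.000248). Each GSTM1 KD library was above each control KD library, but control KD replicate 1 was far below replicate 2, and without replicate 1 the log2 difference was 0.82 and 0.86, and without replicate 2 it was 1.78 and 1.94. The summed astrocyte markers given above were also lowest in replicate 1 of control KD, and the part of the marker level in the values of Ptn and Cntf was not tested.

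Of 7 tested genes for midkine and pleiotrophin receptors, 1 was higher without stimulation and 2 after TNF-α. The heparan sulfate proteoglycan Sdc2 was at 127 and 144 TPM in basal control KD and 214 and 224 TPM in basal GSTM1 KD (log2 0.63, SE 0.120, edgeR adjusted p = 0.0354) and was also higher after TNF-α (log2 0.66, SE 0.124, edgeR adjusted p = 0.0275). Lrp1, an endocytic receptor, was higher after TNF-α (log2 0.47, SE 0.114, edgeR adjusted p = 0.0470). Ptprz1, the receptor phosphatase for pleiotrophin, did not pass, with log2 values of 0.58 (SE 0.339) and 0.52 (SE 0.291), and Alk had 4 to 12 counts per library and was not tested.

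Genes for enzymes that cut growth factor precursors changed in both directions, 2 of 8 being higher and 1 lower at the basal level, and 3 higher and 1 lower after TNF-α. The proprotein convertases Pcsk6 and Furin were higher at the basal level (log2 0.69, edgeR adjusted p = 0.0290, and log2 0.57, adjusted p = 0.0474) and after TNF-α (log2 0.70, adjusted p = 0.0175, and log2 0.58, adjusted p = 0.0341). The sheddase Adam12 was lower in both states (log2 -0.58, edgeR adjusted p = 0.0325, and log2 -0.51, adjusted p = 0.0265), and Adam10 was higher after TNF-α (log2 0.55, edgeR adjusted p = 0.0388). Manf and Cdnf, factors retained in the endoplasmic reticulum, did not pass in either state. Over all lists of related ligands, receptors, processing enzymes and hypoxia-response genes, 5 genes were higher and 7 lower of 72 tested in basal libraries (6.94% and 9.72%, beside 4.6% and 5.62% of all tested genes), and 8 higher and 7 lower of 71 after TNF-α (11.3% and 9.86%, beside 7.26% and 8.92%). Whether these shares differ from those of all genes was not tested.

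**Figure D3:**
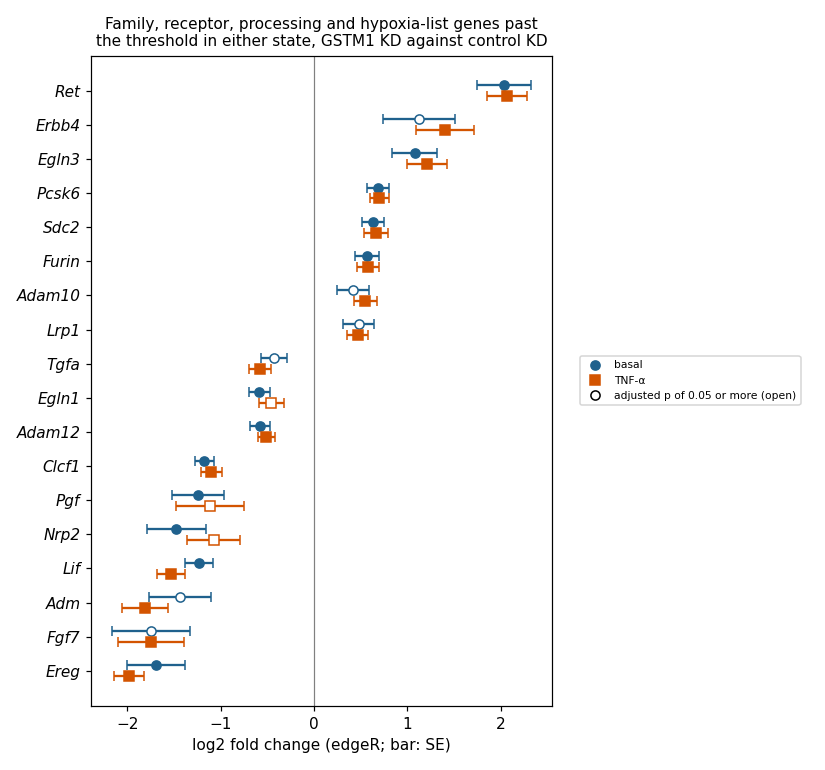
The log2 fold change of GSTM1 KD against control KD (horizontal axis, edgeR; bars are standard errors) for genes of the related ligand, receptor, processing and hypoxia lists that passed in at least 1 state; circles are the basal level, squares TNF-α, and open symbols did not pass. Ret is at the top near a log2 value of 2.04 and Ereg at the bottom, with Lif and Clcf1 also left of 0.

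The comparison of stimulated with unstimulated libraries within each line asked whether 6 h of TNF-α moved these transcripts. In control KD 0 of 8 members passed in edgeR, where 2.63% of all tested genes did, and in GSTM1 KD 0 of 8 passed, where 2.65% did. DESeq2 (4.58% and 3.77% of all genes) and limma on log2 TPM (2.03% and 2.25%) also called 0 members in either line. With the replicate number as a block Vegfa passed in each line, beside 6.44% and 5.27% of all tested genes, and with no filter on low counts 0 members passed in control KD, beside 4.74%, and Vegfa and Gdnf passed in GSTM1 KD, beside 3.97%. At an unadjusted p under 0.05 there were 2 members in each line, Vegfa and Hbegf, beside 12.5% of all tested genes in control KD and 10.9% in GSTM1 KD. Among the 8 members tested, the TNF-α libraries did not overlap with the basal libraries for 2 in control KD (Vegfa and Hbegf). In GSTM1 KD this held for 3 (the same with Gdnf), beside 34.5% and 44.5% of all tested genes in these lines. Ntf3, too low for the filter and not tested, was also lower in each stimulated library. Its counts were 3 and 4 before TNF-α against 0 and 1 after it with the control shRNA. With the Gstm1 shRNA they were 5 and 5 against 0 and 1.

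Vegfa had a log2 response of -0.37 (SE 0.120, edgeR adjusted p = 0.231) in control KD and -0.44 (SE 0.122, edgeR adjusted p = 0.167) in GSTM1 KD, and with the replicate block the edgeR adjusted p was 0.0419 and 0.0281. For Hbegf the response was -0.28 (SE 0.0991, edgeR adjusted p = 0.281) and -0.34 (SE 0.0992, edgeR adjusted p = 0.183). Gdnf had the largest positive estimates, 0.69 (SE 0.395, edgeR adjusted p = 0.612) and 1.02 (SE 0.449, edgeR adjusted p = 0.481), with wide errors, and with no filter the adjusted p in GSTM1 KD was 0.0127. For Fgf2 the estimates were 0.02 (SE 0.0934) and 0.01 (SE 0.0937), the smallest errors of the 8. Bdnf, Mdk, Cntf and Ptn had estimates between -0.23 and 0.26 in both lines, with standard errors of 0.247 to 0.394.

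Of 72 tested related genes, 2 passed in each line in edgeR, Lif and Sdc4, a share like the 2.63% and 2.65% of all tested genes. Lif was higher after TNF-α in control KD (log2 1.35, SE 0.162, edgeR adjusted p = 0.00803) and in GSTM1 KD (log2 1.08, SE 0.164, edgeR adjusted p = 0.0177). Sdc4, a syndecan that binds midkine family proteins, was at 556 and 651 TPM at the basal level and 1062 and 1462 TPM after TNF-α in control KD (log2 1.09, SE 0.166, edgeR adjusted p = 0.0194), and its response in GSTM1 KD was 0.88 (SE 0.165, edgeR adjusted p = 0.0408). The basal and stimulated contrasts share the same libraries, so the responses and the line differences are not independent of each other.

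**Figure D4:**
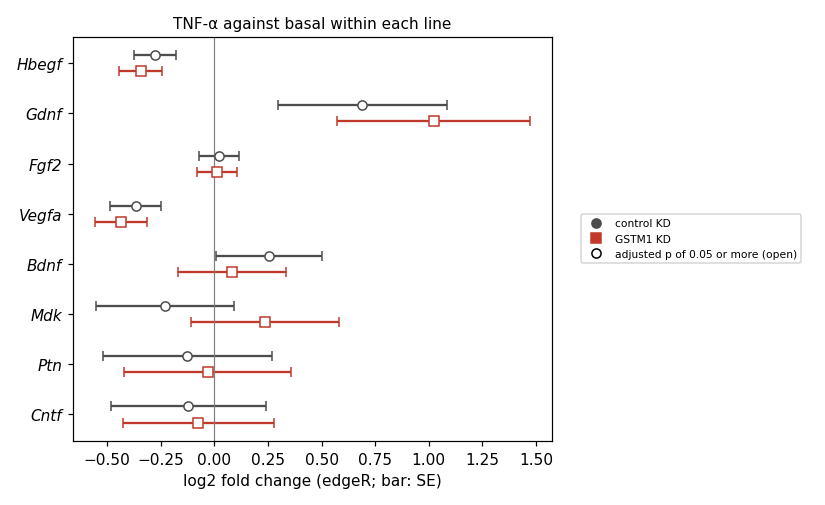
The log2 fold change of TNF-α against the basal level (horizontal axis, edgeR; bars are standard errors) for the 8 members tested, in control KD (circles) and GSTM1 KD (squares). All symbols are open, since no member passed an adjusted p of 0.05 in the fit without a replicate block, and Vegfa and Hbegf lie left of 0 in both lines.

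Whether the response to TNF-α differed between the lines was tested by the interaction of knockdown and stimulation. In edgeR 0 of 8 members passed, as did 0 of 15332 genes (0%), with 0 members and 295 genes at an unadjusted p under 0.05. DESeq2 called 0 members and 27 genes. The estimated differences of the responses (GSTM1 KD minus control KD, log2) were largest for Mdk at 0.47 (SE 0.472) and Gdnf at 0.33 (SE 0.597), and lay between -0.17 and 0.09 for the other 6. The standard errors were 0.132 for Fgf2, 0.140 for Hbegf and 0.171 for Vegfa, and 0.353 to 0.597 for the other 5. This fit did not pair replicates by number, and in it only large differences would have been detectable for those 5. Deviations of replicates with the same number correlated between basal and stimulated libraries at 0.575 in control KD and 0.33 in GSTM1 KD. Standard errors of a fit with a replicate block are not given here.

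For each tested member the 3 most similar genes among 15331 others were listed (Pearson r of log2 CPM over the 8 libraries, which share groups and replicates). The level of Cntf followed Glul, the glutamine synthetase gene of astrocytes (r = 0.997), Armc3 and Cyb5r3. Ptn was most like Arsa (r = 0.996), Sidt2 and Pex7. Gdnf was most like Tubgcp4 (r = 0.995), Dnajc11 and Trmt44, and Bdnf like Gon4l (r = 0.989), Zc3hav1l and Ankrd1. Vegfa was most like Klhdc8a (r = 0.994), Slc3a2 and Dolpp1, and Fgf2 like Ripk3 (r = 0.993), Wwp2 and the EGF family ligand Tgfa (r = 0.986). Hbegf was most like Sh3gl1 (r = 0.992), Shroom3 and Arhgap31, and Mdk like Ror2 (r = 0.978), Irs4 and Mrc2. On log2 TPM, 3 of 3 of these genes were again named for Hbegf, 2 of 3 for Bdnf and Cntf, and 0 of 3 for the other 5.

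The summed astrocyte marker level differed between the libraries along with several of these results. Gfap was the most abundant of the 9 summed markers in each library and made up a large part of the sum. Its level was 707 and 2206 TPM, of sums of 1580 and 3790, in basal control KD. In basal GSTM1 KD it was 2333 and 4184 TPM, of sums of 3650 and 5720. Gfap did not pass in either state (log2 1.1, edgeR adjusted p = 0.234, and 1.08, adjusted p = 0.218). The markers did not move as one. Aldh1l1, Aldoc, Slc1a2 and Gja1 had positive log2 values after TNF-α, at 1.22, 1.10, 0.49 and 0.07. Their basal mean TPM in GSTM1 KD was 229, 109, 52.8 and 202, against 105, 48.9, 34.1 and 150 in control KD. Slc1a3 and Aqp4 had log2 values of 0.006 and -0.08 at the basal level and -0.03 and -0.02 after TNF-α, Sox9 had -0.50 and -0.41, and S100b, the only one of the 9 that passed, was lower in both states (10.01 and 12.8 against 4.23 and 4.52 TPM at the basal level, edgeR adjusted p = 0.0269, and adjusted p = 0.0387 after TNF-α). Glul, which is not on the list, was at 210 and 341 against 481 and 511 TPM at the basal level and did not pass (edgeR adjusted p = 0.0875). Within control KD at the basal level, the library with the lower marker sum (replicate 1) also had the lower Ptn (51.9 against 102 TPM) and Cntf (28.6 against 52.8 TPM) and the higher Gdnf (4.51 against 2.74 TPM) and Bdnf (26.0 against 18.5 TPM). In GSTM1 KD, where replicate 1 again had the lower marker sum, Ptn was not lower in it (203 against 175 TPM at the basal level and 194 against 166 TPM after TNF-α), Bdnf was not higher (14.3 against 17.2 and 15.4 against 17.0 TPM), and Cntf was at 85.5 against 85.2 and 69.7 against 88.1 TPM. Gdnf was higher in that replicate, at 1.14 against 0.80 and 2.17 against 1.68 TPM. The part of the marker level in the line differences of Gdnf and Bdnf was not tested either.

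**Figure D5:**
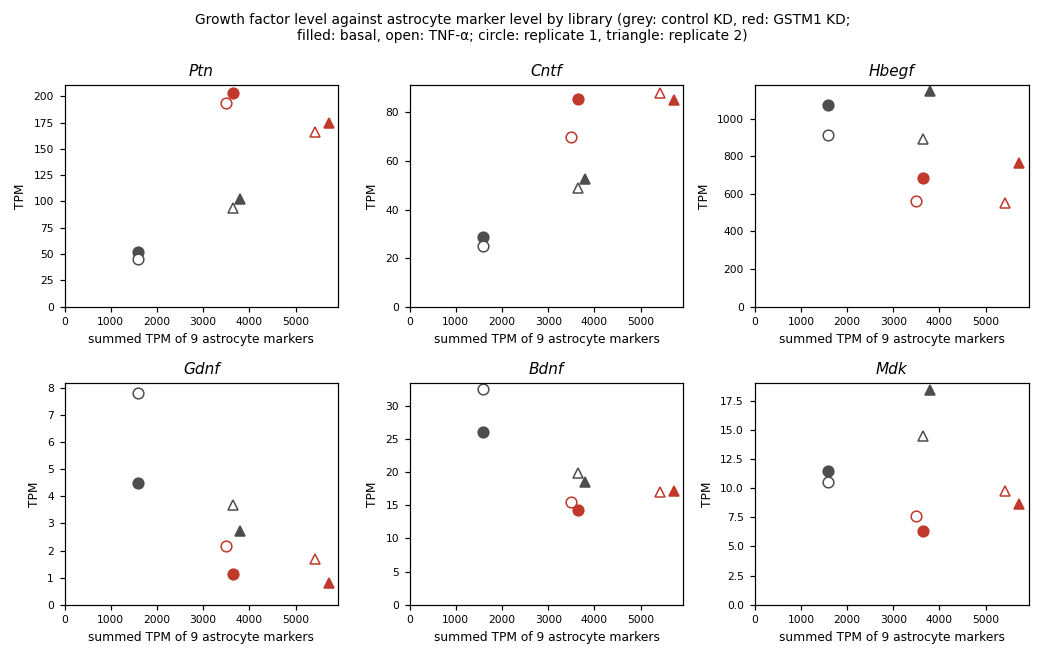
Level of 6 members in TPM (vertical axes) against the summed TPM of 9 astrocyte markers (horizontal axes) in each of the 8 libraries; grey is control KD, red GSTM1 KD, filled symbols basal, open symbols TNF-α. Control KD replicate 1 has the lowest marker sum in each state (1580) and, within control KD, the lower Ptn and Cntf and the higher Gdnf and Bdnf. Gfap makes up a large part of the marker sum.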

How the data were processed

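RNA was measured in 8 libraries. Per the labels and the study's methods, the authors made directional paired-end libraries, mapped reads to GRCm38 with STAR (version 2.5.4b) and quantified genes with RSEM (version 1.3.0). Expected counts, as deposited, are RSEM estimates per gene, not normalized, in which reads shared between genes are divided. The deposited TPM values are scaled by the authors for length and total. The deposited effective lengths, in bases, can differ between libraries.

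Expected counts were rounded. TMM factors, a low-count filter (filterByExpr with the groups) and quasi-likelihood tests were computed with edgeR (version 4.0.16, R version 4.3.3), and p-values were adjusted by Benjamini-Hochberg over all tested genes, with a threshold of 0.05. The lines were compared on the 4 libraries of a state, and the TNF-α responses and their difference on all 8. Since groups of 2 cannot reach 0.05 in an exact test, p-values come only from models fitted across genes. Alternatives were DESeq2 (version 1.42.0), its size factors in edgeR, limma (version 3.58.1) on log2(TPM + 0.5), which understates changes of low genes, dropping the filter, a minimum of 10 counts per library, length offsets, a replicate block, other sets of libraries and leaving out each replicate. The fitting was tested on simulated data. Counting error alone would allow 3 counts where 0 were found. Replicate libraries differed by more than sampling noise.

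Gene positions are from GENCODE M21. Members and gene lists were chosen with earlier results of these data known. Every member is named, with the related genes that passed (at most 4 per list and comparison), the members' signalling receptors and the 3 most similar genes. Neighbours that share exons, and marker genes, were named after their values were seen. Figures were drawn with Python version 3.11.15 and matplotlib version 3.10.9.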

Additional observations from a re-analysis of the deposited data

How the results depend on the processing

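Directions held throughout for the members that passed. Of 608 recalculated log2 fold changes of members, 543 kept their side of the threshold, 54 passed only under the alternative and 11 passed only in the fit reported. At the basal level the 2 members called became 4 with DESeq2, 7 with no filter, 1 with limma on log2 TPM and 0 to 6 when single replicates were left out, and the 1524 genes called became 2492 with DESeq2, 3957 with no filter, 2762 with all 8 libraries and 1 to 5256. After TNF-α the 2 members became 6 with DESeq2, 7 with no filter, 4 with length offsets, 4 with all 8 libraries and 0 to 6, and the 2360 genes became 2824 with DESeq2, 4540 with no filter, 1976 with length offsets, 3116 with all 8 libraries and 0 to 5028. For the TNF-α response in control KD the 403 genes became 742 with DESeq2, 1255 with no filter, 72 with only its 4 libraries and 180 to 313 when single replicates were left out. In GSTM1 KD the 0 members became 2 with no filter, and the 406 genes became 630 with DESeq2, 1050 with no filter, 691 with only its 4 libraries and 74 to 444. For the difference of the responses the 0 genes became 27 with DESeq2, 134 with no filter and 0 to 2. The cause was not tested. For limma between the basal lines the number of all genes called is not given here. Its 1 member can therefore not be set beside a share of all tested genes.

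Replicates share a number across groups, and what it marks was not given in the sources used here. Their deviations correlated positively in each of the 6 pairs of groups (0.165 to 0.575, 2 pairs of libraries per comparison). With a replicate block 8 members and 4712 genes passed between the basal lines, 7 and 4302 between the stimulated lines, 1 and 988 for the control KD response, and 1 and 808 for that of GSTM1 KD. Depth limits Ntf3, at 0 to 5 counts.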
